A study of Homo sapiens with 9 samples.

Results

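The genes described here are the colony-stimulating factors CSF2, CSF3 and CSF1, the IL-6 family ligands IL6, LIF and IL11, the IL-10 family ligand IL24, and the receptor genes IL6R, IL6ST and OSMR. They were chosen by name, and all 10 were found among the 78894 gene identifiers of the files. Of the 17100 genes that reached 1 TPM (a length-scaled share of all transcripts in the library) in at least 2 distinct libraries, 9 were from this set. CSF3 did not reach that level, and CSF2, IL11 and IL24 reached it through knockout libraries only. The set was drawn up with results for these samples known, among them the high CSF2 values in A8ko and C9ko. Differences of the 10 genes from Control are therefore given as descriptions, without p-values, and counts of calls among them carry no weight as tests.

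RNA was measured in CAL27, an established squamous carcinoma line from the tongue, in cells edited with CRISPR and in control cells. The study asked about enhancer function in this type of tumour. All were cultured alike and untreated, as Control (3 samples) and the knockouts A2ko, A8ko and C9ko (2 samples each). The labels name neither the sequence edited nor the guide, and they do not say whether a knockout is 1 clone or a pool, or what the Control cells received, so no edited gene could be checked. The A2ko files were identical to each other and so were the A8ko files. In each identical pair both files carried the column name of the second library, and each pair was counted as 1 library. That left 7 distinct libraries: 3 of Control, 1 of A2ko, 1 of A8ko and 2 of C9ko. A2ko and A8ko thus have no replicates. Nothing in the labels says that samples of a group came from separate cultures, so p-values for C9ko measure only the spread between these libraries.

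Colony-stimulating factors are secreted proteins that drive the growth and activation of myeloid cells. GM-CSF, the product of CSF2, acts on granulocytes and macrophages, G-CSF (CSF3) on neutrophils and M-CSF (CSF1) on macrophages. IL-6 family cytokines signal through the shared receptor chain gp130, encoded by IL6ST, which pairs with a chain specific to each ligand and activates JAK kinases and the transcription factor STAT3. Squamous epithelial and carcinoma cells are known sources of several of these factors, whose genes are switched on by NF-kB and AP-1 and whose mRNAs are short-lived because of AU-rich elements in the 3′ UTR.

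RefSeq promoter sequences (GRCh38.p14, 250 bases before to 50 after the RefSeq start) were found for 7 of the 10 genes. Those of CSF2, IL6 and IL11 are shown because CSF2 and IL6 were highest in A8ko and IL11 in A2ko. IL24 was also highest in A8ko, but its promoter and those of IL6R, IL6ST and OSMR are not shown. Capitals mark matches, on either strand, to GGG followed by any 5 bases and CC (an NF-kB decamer), TGANTCA (AP-1) and TTGCNNAA (C/EBP), and overlapping matches run together.
CSF2 (chr5:132073539-132073838, plus strand): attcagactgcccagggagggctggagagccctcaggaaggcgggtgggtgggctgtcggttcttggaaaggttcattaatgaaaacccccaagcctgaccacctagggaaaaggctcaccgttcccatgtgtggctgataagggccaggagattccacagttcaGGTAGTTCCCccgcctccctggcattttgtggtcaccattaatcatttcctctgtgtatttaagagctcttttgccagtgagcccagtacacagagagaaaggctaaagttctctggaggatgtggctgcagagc
IL6 (chr7:22726950-22727249, plus strand): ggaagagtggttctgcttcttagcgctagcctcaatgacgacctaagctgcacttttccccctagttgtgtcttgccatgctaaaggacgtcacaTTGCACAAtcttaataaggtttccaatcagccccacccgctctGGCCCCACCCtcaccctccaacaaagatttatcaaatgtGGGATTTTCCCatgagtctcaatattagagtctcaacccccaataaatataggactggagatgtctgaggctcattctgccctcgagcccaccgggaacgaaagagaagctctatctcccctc
IL11 (chr19:55370414-55370713, minus strand): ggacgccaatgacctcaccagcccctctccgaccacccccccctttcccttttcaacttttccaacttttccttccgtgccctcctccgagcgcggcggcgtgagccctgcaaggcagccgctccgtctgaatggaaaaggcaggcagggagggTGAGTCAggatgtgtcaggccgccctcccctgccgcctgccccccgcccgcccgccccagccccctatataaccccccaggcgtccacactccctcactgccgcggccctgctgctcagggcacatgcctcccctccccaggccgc

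The CSF2 sequence held 1 NF-kB match, GGGAACTACC on the minus strand, beginning at base -85 from the start. The IL6 sequence held NF-kB matches on the plus strand at base -73, GGGATTTTCC, and on the minus strand at -72, with a further one at -112, and a C/EBP match at -155. The IL11 sequence held an AP-1 match, TGAGTCA, at base -96, and no NF-kB or C/EBP match in this window. Among 35116 promoters of the same length, 58.7% held the NF-kB decamer, 7.71% held TGANTCA and 10.5% held TTGCNNAA. The match to the NF-kB decamer is thus common, and each match describes letters only. Of the promoters not shown, that of IL24 held no NF-kB, AP-1 or C/EBP match. Those of IL6R, IL6ST and OSMR all held NF-kB matches, IL6R and OSMR also AP-1 matches, and OSMR a C/EBP match.

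AU-rich stretches were read from the 3′ UTRs of GENCODE 29 transcripts, taking for each gene the transcript with the longest coding sequence. The densest 100 bases of the CSF2 3′ UTR held 8 copies of ATTTA, overlapping copies included. Of 17349 genes compared, 11 (0.0634%) held at least as many. CSF3 held 5, reached by 0.801% of genes, and IL6 and IL6ST held 4 each, reached by 2.97%. CSF1, LIF, IL11, IL24 and OSMR held 3, reached by 12.1%, and IL6R held 2, reached by 35.3%. CSF2 and CSF3 were chosen for display by their counts over 100 bases, and IL11 for comparison. The stretch shown for each is the densest within 30 bases, with copies of ATTTA in capitals. These shorter stretches held 5 copies in CSF2 and 3 each in CSF3 and IL11. A run with the same letters as that of IL11 was found in OSMR, and LIF held 3 copies within 30 bases.
CSF2, bases 229 to 249 of the 3′ UTR: ATTTATTTATTTATTTATTTA
CSF3, bases 24 to 45 of the 3′ UTR: ATTTAtctctATTTAatATTTA
IL11, bases 44 to 56 of the 3′ UTR: ATTTATTTATTTA

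In the 7 libraries, between 15556 and 16716 identifiers reached 1 TPM, and mitochondrially encoded transcripts took 23.1% to 26.9% of the TPM in Control and 17.9% to 25.2% in the knockouts. Sequencing depth is unknown, since TPM keeps no record of it. Squamous markers were high in all libraries, with a sum over 8 genes of 15465 to 16574 TPM for Control, 6712 for A2ko, 7887 in A8ko and 10039.8 to 10203 in C9ko. KRT5 and KRT14 lay below Control in every knockout library, with Control means of 8917 and 3877 TPM against 3082 and 313 in A2ko. CDH1 lay above Control in every knockout library. KRT17, TP63, EPCAM, SFN and PERP did not lie beyond Control on the same side in every knockout library. Of the leukocyte markers, which matter here because these cytokines are also made by immune cells, PTPRC stayed at or below 0.0232 TPM and LYZ at or below 0.0526 in every library. CD68 and CD14 reached 66.3 and 52.5 TPM. Of the fibroblast markers, COL3A1 was listed at 0 in every library and the sum over 6 genes was 7.02 to 16.9 TPM. Of the endothelial markers, KDR was listed at 0, PECAM1 stayed at or below 0.295 TPM, and CDH5 reached 29.9. Whether these differences in marker levels play a part in the results was not tested, and in bulk RNA fewer cells of a type and less RNA per cell cannot be told apart.

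In Control, the order of the 10 genes by mean TPM was OSMR, CSF1, IL6ST, IL6, LIF, IL6R, CSF2, IL11, IL24 and CSF3. OSMR lay above CSF1, CSF1 above IL6ST, and IL6R above CSF2 in every Control library. The neighbours from IL6ST to IL6R, at 10.9 to 14.7 TPM, overlapped in their Control values, and so did those from CSF2 to CSF3, at 0.057 to 0.679 TPM. Control cells thus held CSF1, IL6 and LIF mRNA at over 10 TPM, and CSF2, IL11, IL24 and CSF3 lay under 1 TPM.

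**Figure D1:**
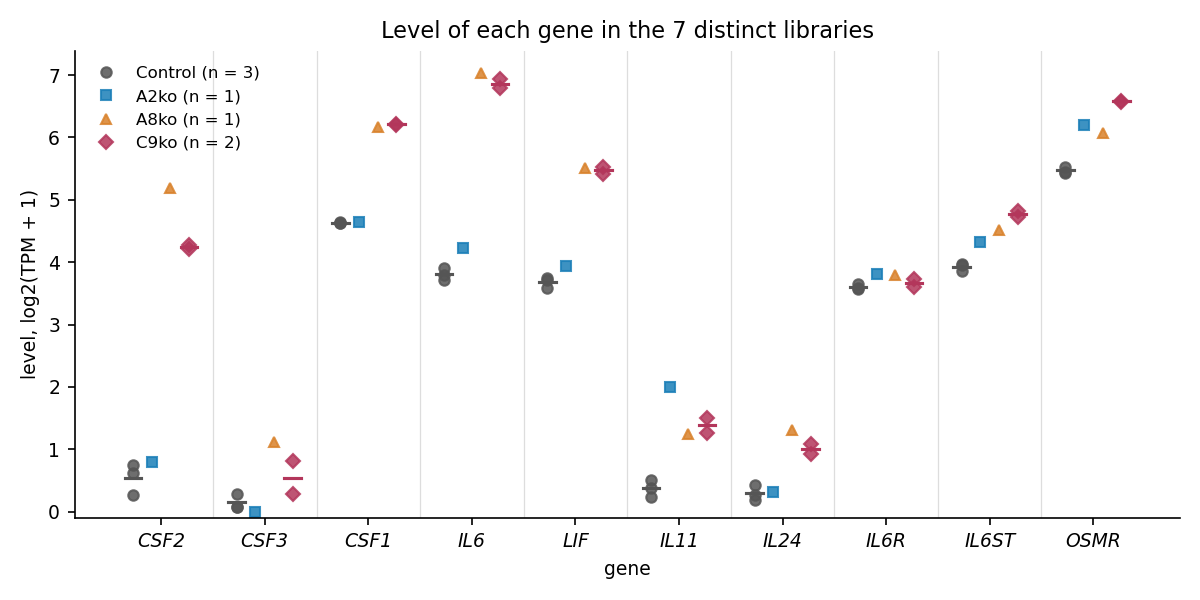
Level of each of the 10 genes on the log2(TPM + 1) scale in the 7 distinct libraries (points), by group, with a short line at the mean where a group has more than 1 library. CSF2, CSF1, IL6 and LIF lie far above Control in A8ko and C9ko and close to Control in A2ko, IL11 is highest in A2ko, and IL6R is at nearly the same level throughout.

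CSF2 (ENSG00000164400, chromosome 5, 132073790 to 132076170, protein coding) measured 0.203, 0.530 and 0.679 TPM in Control. It was at 0.740 TPM in A2ko, 35.3 in A8ko and, for the C9ko libraries, 17.6 and 18.3. The A8ko and C9ko values lay far above every Control library, and the A2ko value just above the highest of them. On the log2(TPM + 1) scale the difference from the Control mean was 4.64 in A8ko, 3.70 in C9ko (SE 0.16, n = 2 against 3) and 0.26 in A2ko. As a ratio of TPM this was 75.0-fold in A8ko and 38.1-fold in C9ko, from a Control mean of 0.471 ± 0.244 TPM (SD, n = 3). These ratios rest on Control values under 1 TPM, where counting error weighs most and cannot be computed without the depth.

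CSF1 (ENSG00000184371, chromosome 1, 109910242 to 109930992, protein coding) had the tightest Control values of the set, 24.0, 23.8 and 23.7 TPM. It was at 24.1 TPM in A2ko, 71.1 in A8ko and, for the C9ko libraries, 72.7 and 73.5. A8ko and C9ko were thus at nearly the same level, 2.98-fold and 3.07-fold the Control mean. The A2ko value lay just above the highest Control library. The log2 differences were 1.54 in A8ko, 1.58 in C9ko (SE 0.06) and 0.02 in A2ko, and the last was -0.14 under median-of-ratios scaling (each library divided by its median ratio to a common reference).

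CSF3 (ENSG00000108342, chromosome 17, 40015361 to 40017813, protein coding) was the weakest gene of the set. Control was at 0.0570, 0.212 and 0.0579 TPM, and A2ko was listed at 0. A8ko was at 1.17 TPM, and C9ko at 0.210 and 0.757. The A8ko library lay above all Control libraries, whereas the lower C9ko library lay within their range. With TPM this low, no fold change is given.

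IL6 (ENSG00000136244, chromosome 7, 22725884 to 22732002, protein coding) was the most abundant transcript of the set in A8ko and C9ko. It was at 12.1, 14.1 and 12.9 TPM for Control, 17.6 for A2ko, 130.5 in A8ko and, for the C9ko libraries, 109.7 and 121.5. Every knockout library lay above every Control library, A8ko at 10.02-fold and C9ko at 8.88-fold the Control mean, against 1.35-fold in A2ko. The log2 differences were 3.23 in A8ko, 3.06 in C9ko (SE 0.08) and 0.41 in A2ko. IL6 overlaps the antisense gene IL6-AS1 and the gene STEAP1B on the opposite strand, and the sources do not say if counting used strand. Their highest values were 4.36 and 5.56 TPM, a small share of the IL6 level.

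LIF (ENSG00000128342, chromosome 22, 30240447 to 30246851, protein coding), a gp130 ligand that signals through LIFR, was at 12.1, 11.0 and 12.5 TPM in Control. It was at 14.3 TPM in A2ko, 44.6 in A8ko and, for the C9ko libraries, 41.8 and 45.1. The A8ko value lay between the C9ko values, and all 3 were more than 3 times the Control mean of 11.8 ± 0.780 TPM (SD, n = 3). On the log2 scale the differences were 1.83 in A8ko, 1.79 in C9ko (SE 0.08) and 0.25 in A2ko. The antisense genes LIF-AS1 and LIF-AS2, which overlap it on the other strand, reached at most 0.219 and 3.92 TPM.

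IL11 (ENSG00000095752, chromosome 19, 55364389 to 55370463, protein coding) had another pattern. Control was at 0.295, 0.182 and 0.415 TPM, A2ko at 2.99, A8ko at 1.37, and C9ko at 1.40 and 1.85. Every knockout library lay above every Control library, and A2ko, where CSF2, CSF1 and LIF were within 1.6 times the Control mean, held the highest value. The log2 differences were 1.62 in A2ko, 0.87 in A8ko and 1.02 in C9ko (SE 0.17).

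IL24 (ENSG00000162892, chromosome 1, 206897443 to 206904139, protein coding), which signals through receptors that include IL20RB, was at 0.140, 0.1995 and 0.339 TPM in Control and at 0.242 in A2ko, inside that range. It was at 1.47 TPM in A8ko, and at 0.896 and 1.11 in C9ko, above all Control libraries. The log2 differences were 1.02 in A8ko, 0.71 in C9ko (SE 0.18) and 0.02 in A2ko.

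The 7 ligand genes summed to 48.9, 49.98 and 50.5 TPM in Control and to 59.98 in A2ko. The sum was 285.5 TPM in A8ko and, for the C9ko libraries, 244.3 and 262.2. IL6 and CSF1 made up most of it in every library.

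The receptor genes differed from the Control mean by at most 1.11 log2 units. IL6R (ENSG00000160712, chromosome 1, 154405193 to 154469450, protein coding), the chain that binds IL-6, was at 10.9, 11.5 and 11.0 TPM for Control, 13.0 for A2ko, 12.9 in A8ko and, for the C9ko libraries, 11.1 and 12.2. One C9ko library lay inside the Control range. Its log2 difference came to 0.21 for A2ko, 0.20 for A8ko and 0.07 for C9ko (SE 0.08, and -0.05 under median-of-ratios scaling), near the median over all 17100 tested genes, which came to 0.12 for A2ko, 0.09 for A8ko and 0.11 for C9ko. The ratio of IL6 to IL6R TPM was 1.11 to 1.22 in Control, 1.35 in A2ko, 10.1 in A8ko and, for the C9ko libraries, 9.84 and 9.92.

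IL6ST (ENSG00000134352, chromosome 5, 55935095 to 55994993, protein coding), which encodes gp130, was at 14.7, 14.5 and 13.5 TPM in Control. It was at 19.0 TPM in A2ko, 21.8 in A8ko and, for the C9ko libraries, 27.2 and 25.5. Every knockout library lay above every Control library, with C9ko highest at 1.85-fold. Its log2 differences were 0.39 in A2ko, 0.58 in A8ko and 0.84 in C9ko (SE 0.07). An annotated processed pseudogene on the opposite strand inside IL6ST, ENSG00000264281, was at 44.5 to 65.9 TPM, more than IL6ST itself, and without the strand setting reads of the 2 cannot be told apart.

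OSMR (ENSG00000145623, chromosome 5, 38845858 to 38945596, protein coding), the chain that pairs with gp130 for oncostatin M, was at 45.2, 42.8 and 42.2 TPM in Control. It was at 72.3 TPM in A2ko, 66.5 in A8ko and, for the C9ko libraries, 95.5 and 94.2. All 4 knockout libraries lay above Control. Its log2 differences were 0.72 in A2ko, 0.60 in A8ko and 1.11 in C9ko (SE 0.06). The gene RICTOR overlaps OSMR on the opposite strand and was at 9.43 to 10.8 TPM for Control, 10.9 for A2ko, 12.6 in A8ko and 14.1 to 14.9 in C9ko. The ligand gene OSM was at or below 0.123 TPM in Control and listed at 0 in every knockout library.

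Counted over the set, limma (which fits a linear model to every gene) called 8 of the 9 tested members higher in C9ko and 0 lower at a Benjamini-Hochberg adjusted p under 0.05. IL6R was the tested member not called. Over all 17100 tested genes, 29.5% were called, 22% higher and 7.42% lower, and nothing is read from the members' count, since this contrast helped to choose them and CSF2, IL11 and IL24 could be tested only because they were high in knockouts. Among all called genes 74.8% were higher, a share that was 56.3% under median-of-ratios scaling and 60.7% with mitochondrially encoded genes left out. The members' count was 8 under both scalings. IL24 was not called when Control 1, Control 2 or either C9ko library was left out.

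For A8ko, 5 tested members were counted higher, that is above all Control libraries and by 1 log2 unit or more from their mean, and 0 lower. Over all tested genes 2.05% were counted higher, 2.68% lower and 4.73% either way. The 5 were CSF2, CSF1, IL6, LIF and IL24, the last of which was under 1 log2 unit under median-of-ratios scaling or without Control 1. For A2ko 1 tested member, IL11, was counted higher and 0 lower, and over all tested genes 3.54% were higher, 1.53% lower and 5.07% either way. Every knockout library lay above every Control library for 7 members and below it for 0, against 17% above, 4.61% below and 21.6% either way over all tested genes. The 7 were CSF2, CSF1, IL6, LIF, IL11, IL6ST and OSMR, and the count was 5 under median-of-ratios scaling, where CSF2 and CSF1 in A2ko no longer lay above Control. The 3 knockouts share the Control libraries, so their differences are not independent of each other, and differences between knockouts were not tested.

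Neighbouring genes were described next, taking tested genes whose annotated start lay within 500 kb of a member's start. Over all tested genes 22% were called higher and 7.42% lower in C9ko, and the counts around each member are to be read against these shares. Around IL6, 13 genes were tested and 4 were called higher in C9ko, 0 lower, a share near that of all genes. STEAP1B-AS1, whose start lies at -162.5 kb from that of IL6 (upstream), was at 1.35, 1.67 and 2.21 TPM for Control, 2.44 for A2ko, 18.65 in A8ko and, for the C9ko libraries, 14.0 and 13.0 (limma adjusted p 7.76e-05). IL6-AS1 rose in C9ko by 1.32 log2 units (limma adjusted p 0.00215) and STEAP1B by 1.67 (limma adjusted p 0.00557), and these were 1.62 and 2.31 in A8ko and 0.18 and -0.09 in A2ko. STEAP1B and IL6-AS1 overlap IL6, so reads from IL6 could be counted in them if strand was not used. Both could be tested only because they reached 1 TPM in A8ko and C9ko. Elsewhere STEAP1B stayed under 1 TPM, and IL6-AS1 reached it only in Control 1, at 1.07. STEAP1B lost its call when genes of low value were kept in the test. The other tested neighbours of IL6 differed by less than 1 log2 unit in every knockout.

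Around CSF2, 7 of 13 tested neighbours were called higher in C9ko and 0 lower. The largest were P4HA2, a collagen prolyl hydroxylase subunit, with 1.22 log2 units (limma adjusted p 6.14e-05), and SLC22A4, an organic cation transporter, with 1.20 (limma adjusted p 0.000425). P4HA2 was at 20.6 to 22.7 TPM for Control, 31.4 for A2ko, 51.0 in A8ko and, for the C9ko libraries, 51.3 and 52.5. IL3, the cytokine gene next to CSF2, was listed at 0 in every library.

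Around CSF1 and CSF3 neighbours were called in both directions. Of 19 tested around CSF1, 3 were called higher and 5 lower in C9ko, and of 27 around CSF3, 7 higher and 5 lower. GSTM1 and GSTM2, glutathione transferase genes near CSF1, fell in C9ko by 1.33 and 1.29 log2 units (limma adjusted p 3.48e-05 and 0.000121), and their differences in A2ko were 0.62 and 0.99. They are close paralogs, so the split of reads between them is uncertain. RAPGEFL1, near CSF3, fell from 47.6 to 50.2 TPM in Control to 21.5 and 26.6 in C9ko (limma adjusted p 0.000475), with a log2 difference of -1.02 in A8ko.

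Around IL24, 7 of 14 were called higher in C9ko and 1 lower. FCMR, an IgM receptor gene, was at 2.81, 3.92 and 2.70 TPM for Control, 5.96 for A2ko, 8.21 in A8ko and, for the C9ko libraries, 12.9 and 13.5, a rise of 1.79 log2 units in C9ko (limma adjusted p 0.000204). IL20, an IL-24 relative whose start lies at -32.1 kb from that of IL24, was at 0.925 to 0.981 TPM for Control, 1.08 for A2ko, 2.57 in A8ko and, for the C9ko libraries, 3.48 and 4.64 (limma adjusted p 0.000745), and it could be tested only because its knockout values reached 1 TPM. An antisense partner of LIF, LIF-AS2, rose in C9ko by 1.18 log2 units (limma adjusted p 0.00166), and the divergent OSMR-DT by 1.23 (limma adjusted p 0.00024). LIF-AS2 overlaps LIF, so reads from LIF could be counted in it if strand was not used. LIF-AS1, the other antisense gene there, stayed at or below 0.219 TPM and was not tested. Around IL11, 34 genes were tested, and 1 was called higher and 3 lower in C9ko. In A2ko 4 were counted higher, against 3.54% of all tested genes. These 4 were NAT14, TNNT1, EPS8L1 and COX6B2, each with a log2 difference of 1.02 to 1.08. COX6B2 was at 0.358 to 0.899 TPM in Control and could be tested only through A2ko and C9ko 1, at 2.31 and 1.28.

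**Figure D2:**
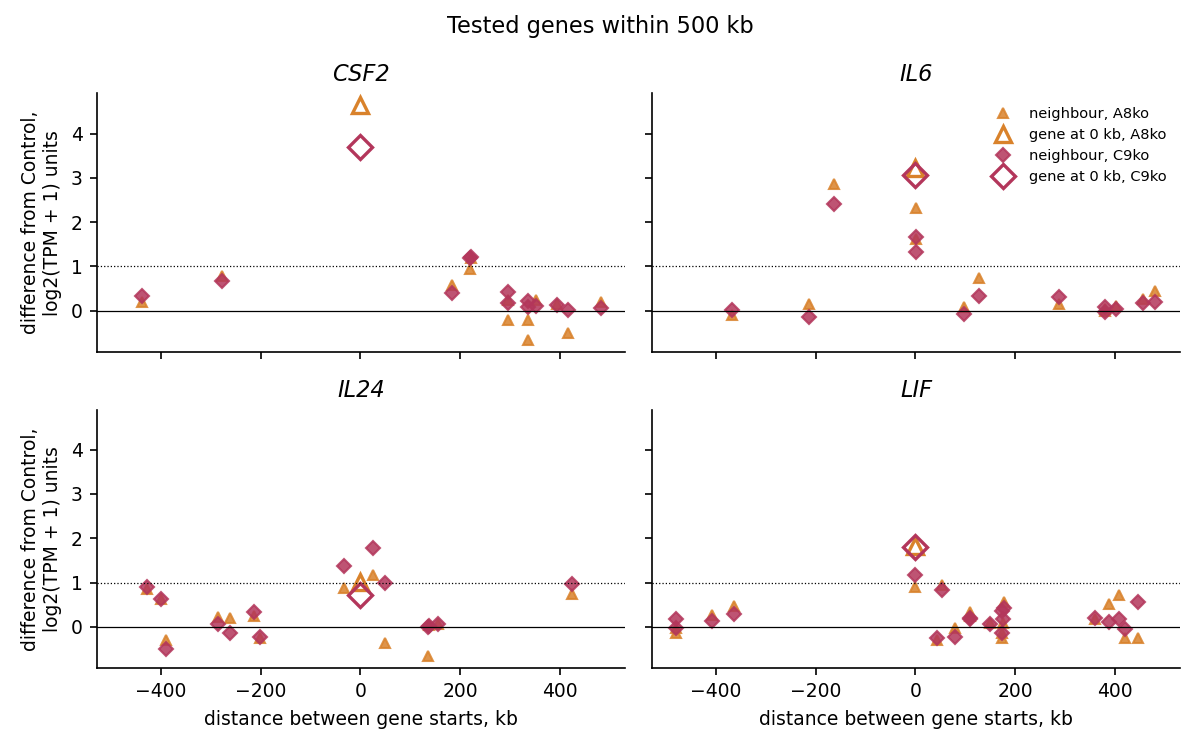
Difference from the Control mean, in log2(TPM + 1) units, of tested genes within 500 kb of CSF2, IL6, IL24 and LIF in A8ko and C9ko, against the distance between gene starts. Large open symbols mark the named gene itself and the dotted line 1 log2 unit. Around IL6 the gene at -162.5 kb, STEAP1B-AS1, is at 2.85 in A8ko and 2.42 in C9ko, whereas most other neighbours lie near 0.

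Receptors for the colony-stimulating factors were low. None of the 9 genes of that list was tested. CSF2RA and CSF2RB, the GM-CSF receptor chains, stayed at or below 0.0140 and 0.0424 TPM in every library, and CSF3R at or below 0.0438. CSF1R, the M-CSF receptor, was at 0.297 to 0.554 TPM for Control, 1.33 for A2ko, 0.702 in A8ko and, for the C9ko libraries, 0.418 and 0.393.

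The wider pathway was described with 9 lists ordered by role, 131 genes in all, of which 100 were tested. The lists were chosen with earlier results of these data known, so their counts are not independent evidence. In C9ko 45 were called higher and 8 lower by limma, 41 and 13 under median-of-ratios scaling, and the median log2 difference was 0.27 against 0.11 over all tested genes. Over all tested genes 22% were called higher and 7.42% lower, so the list genes called lower were near that share. Under median-of-ratios scaling 2702 of the 17100 tested genes were called higher and 2099 lower. The counts of each list below are to be read against the shares of all tested genes under the same scaling. In A8ko 12 were counted higher and 3 lower, against 2.05% and 2.68% of all tested genes, and in A2ko 4 and 3, against 3.54% and 1.53%.

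Among the other IL-6 family ligands and receptors, 2 of 8 tested genes rose in C9ko and 0 fell, near the 22% of all genes called higher. CLCF1, a ligand of the CNTF receptor, rose by 1.16 log2 units (limma adjusted p 0.000168 with SE 0.09), that is from 6.47 ± 0.454 TPM (SD, n = 3, Control) to 16.0 and 15.4, and was at 12.8 in A8ko and 8.59 in A2ko. IL27RA was the other. IL11RA, the IL-11 receptor chain, was at 12.6 TPM in A2ko against 3.14 to 3.52 in Control, a log2 difference of 1.64. It was at 1.81 TPM in A8ko and, for the C9ko libraries, 2.81 and 2.70. A2ko thus held the highest level of both IL11 and IL11RA.

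Among the IL-24 relatives and receptors, 1 of 5 tested genes rose in C9ko and 3 fell. IL20RA, a receptor chain shared by IL-20 and IL-24, fell by 1.18 log2 units (limma adjusted p 0.00548), and it was at 1.74 to 2.19 TPM for Control, 0.147 for A2ko, 0.0250 in A8ko and, for the C9ko libraries, 0.118 and 0.562. IL20RB, the partner chain, was at 98.2 to 107.5 TPM in Control and 10.2 in A2ko, a log2 difference of -3.22. It was at 91.5 TPM in A8ko and 79.6 in both C9ko libraries (limma adjusted p 0.00586, and 0.0652 with the replicate number as a block). IL22RA1 also fell, and IL20 is given above.

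Of 15 tested JAK and STAT signalling genes, 6 rose in C9ko and 0 fell, against 22% and 7.42% of all tested genes. Under median-of-ratios scaling 6 rose and 1 fell (SHC1). JAK2, a kinase used by the GM-CSF receptor and gp130, rose by 1.06 log2 units (limma adjusted p 0.000623 with SE 0.11), that is from 1.90, 2.01 and 2.09 TPM to 5.40 and 5.15. It was at 2.10 TPM in A2ko and 1.80 in A8ko. JAK1, STAT3, STAT5A and GAB2 were among the others. STAT3 rose by 0.36 (limma adjusted p 0.00763), that is from 73.3 to 81.2 TPM in Control to 97.9 and 100.9.

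Of 15 tested feedback inhibitors, 5 rose in C9ko and 0 fell, against 22% and 7.42% of all tested genes. The 5 were SOCS1, SOCS3, SOCS4, CISH and PTPN2. Under either other scaling 4 rose and 1, PTPN6, fell. SOCS1 lost its call in 9 of 13 alternatives, both scalings among them, SOCS4 and CISH in 2 each and PTPN2 in 1. SOCS3, the inhibitor that STAT3 itself induces, was at 26.2, 26.1 and 29.96 TPM for Control, 54.3 for A2ko, 57.9 in A8ko and, for the C9ko libraries, 37.0 and 37.2. It rose in C9ko by 0.43 log2 units (limma adjusted p 0.0082, and 0.0566 when genes of low value were kept), and the log2 difference was 1.06 in A8ko and 0.97 in A2ko.

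Of 16 tested STAT3 and IL-6 response genes, 9 rose in C9ko and 2 fell, or 9 and 3 under median-of-ratios scaling. The acute-phase genes SAA1 and SAA2 and the related serum amyloid gene SAA4 rose by 2.56, 2.31 and 1.41 log2 units (limma adjusted p 1.77e-05, 1.61e-05 and 0.000565). SAA1 was at 74.5 to 84.5 TPM for Control, 112.2 for A2ko, 285.5 in A8ko and, for the C9ko libraries, 429.1 and 521.8. SAA1 and SAA2 are close paralogs whose reads may be split unevenly, so each value is uncertain. TIMP1, a metalloproteinase inhibitor, rose by 1.07 (limma adjusted p 0.000118), that is from 14.3 ± 0.351 TPM (SD, n = 3, Control) to 29.6 and 32.6 in C9ko, and was at 42.7 in A2ko and 44.3 in A8ko. SERPINA3, an acute-phase protease inhibitor, went the other way in C9ko, with a fall of 0.89 (limma adjusted p 0.00216). The fibrinogen genes FGA, FGB and FGG, liver targets of IL-6, were listed at 0 in every library.

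Of 18 tested transcription factors of cytokine promoters, 10 rose in C9ko and 2 fell, or 8 and 3 under median-of-ratios scaling. The AP-1 family split. FOSL1 rose by 1.28 log2 units (limma adjusted p 3.33e-05), that is from 74.6 ± 2.61 TPM (SD, n = 3) to 182.4 and 183.4, and JUN by 1.13 (limma adjusted p 0.000229). FOS fell by 2.44 (limma adjusted p 5.7e-06), that is from 145.2 ± 3.96 TPM (SD, n = 3) to 25.6 and 26.3, and FOSB by 1.71 (limma adjusted p 3.49e-05). In A8ko FOSL1 was at 256.1 TPM and FOS at 59.1, and in A2ko FOSL1 was at 38.9 and FOS at 244.2, so A2ko lay on the opposite side of Control for both. ETS1 rose in C9ko by 1.21 (limma adjusted p 0.000534). Among NF-kB subunits, RELB rose most, by 0.95 (limma adjusted p 0.000147), that is from 17.7 ± 0.477 TPM (SD, n = 3) to 33.8 and 36.2. It was at 34.3 in A8ko and 25.6 in A2ko, and RELB was chosen after its values were seen. NFKB2 rose by 0.53 (limma adjusted p 0.00565) and RELA by 0.23 (limma adjusted p 0.0295). RELA lost its call in 9 of 13 alternatives. NFKB1 and REL were not called (limma adjusted p 0.0836 and 0.0793).

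Of 12 tested genes of cytokine mRNA decay and stability, 3 rose in C9ko and 1 fell, near the 22% and 7.42% of all tested genes. Under median-of-ratios scaling 3 rose and 2 fell (HNRNPD also lower). ZFP36, which encodes the AU-rich element binding protein tristetraprolin, fell by 1.13 log2 units (limma adjusted p 3.92e-05 with SE 0.06), that is from 137.4 ± 0.210 TPM (SD, n = 3, Control) to 60.7 and 63.8. It was at 110.3 TPM in A8ko and 176.7 in A2ko. ZC3H12A, which encodes the ribonuclease regnase-1, rose by 1.29 (limma adjusted p 6.36e-05 with SE 0.07), that is from 53.0 ± 3.08 TPM (SD, n = 3) to 126.6 and 135.1, and was at 115.7 in A8ko and 36.3 in A2ko. These 2 decay factors for cytokine mRNA thus moved in opposite directions in C9ko.

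Of 11 tested inducing cytokines and shedding enzymes, 9 rose in C9ko and 0 fell, or 8 and 0 under median-of-ratios scaling. TNF rose by 2.41 log2 units (limma adjusted p 3.49e-05 with SE 0.12), that is from 1.38, 1.18 and 1.67 TPM to 11.3 and 12.2, with 16.4 in A8ko and 2.95 in A2ko. IL17C rose by 1.96 (limma adjusted p 0.000189), that is from 0.242 ± 0.110 TPM (SD, n = 3) to 4.06 and 3.56, with 2.03 in A8ko and 1.98 in A2ko, and it could be tested only because its knockout values reached 1 TPM. IL1B rose by 0.87 (limma adjusted p 4e-04) and was at 94.3 to 107.2 TPM for Control, 177.8 for A2ko, 292.9 in A8ko and, for the C9ko libraries, 176.3 and 194.8. IL1A rose by 0.71 in C9ko (limma adjusted p 0.00143). ADAM17, which sheds the IL-6 receptor, was among the others.

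**Figure D3:**
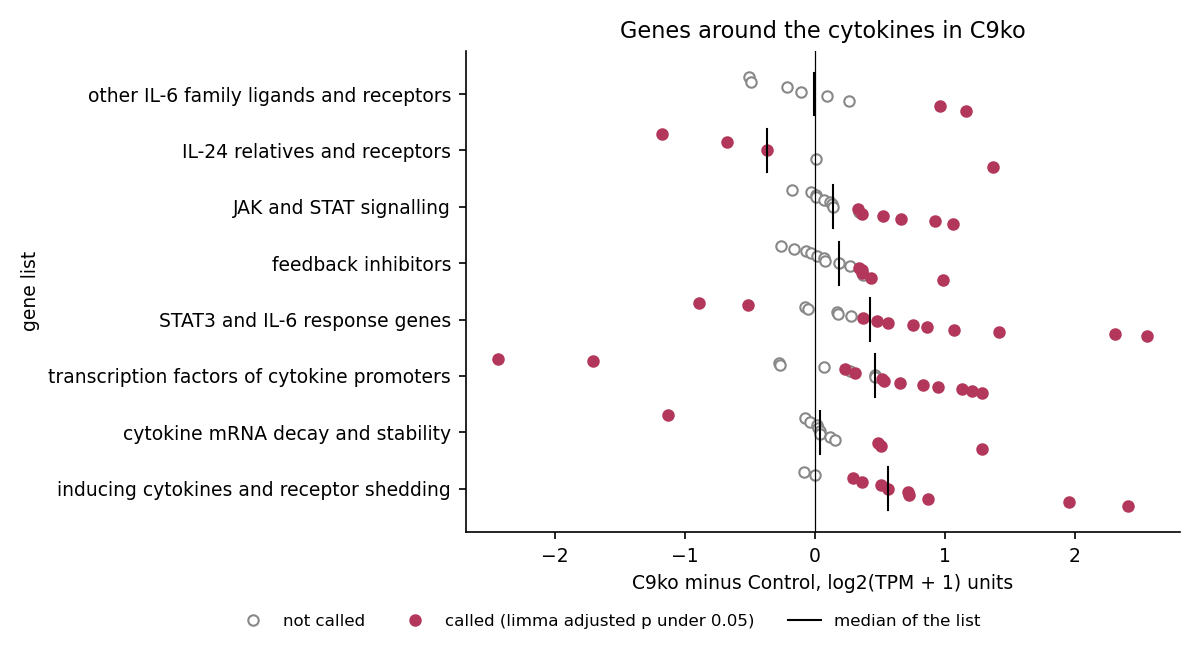
C9ko minus Control, in log2(TPM + 1) units, for each tested gene of the pathway lists, with filled points for genes called by limma and a black bar at the median of each list. The list without tested genes is not drawn. The inducing cytokines and the transcription factors have medians of 0.56 and 0.46, FOS and FOSB are at -2.44 and -1.71, and SAA1 and SAA2 are the rightmost points among the response genes.

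The genes whose levels were most like those of each member were named by Pearson's r over the 7 libraries, among 2419 genes with a symbol, a highest value of at least 5 TPM and a range of at least 1 log2 unit. Libraries of a group lie close together, so r describes these few groups. For CSF2 they were STEAP1B-AS1 (0.997), SSH1 (0.995) and DUBR (0.992). For CSF1 they included CXCL8 and NKX1-2 (each 0.998), and CXCL8 was at 20.4, 19.9 and 21.4 TPM for Control, 20.3 for A2ko, 62.3 in A8ko and, for the C9ko libraries, 66.7 and 71.8. TMEM132A was nearest to both IL6 and LIF (0.997 each), and ZC3H12C was close to both (0.994 each).

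For IL11 the nearest genes were BMP2 (0.996), COL5A1 (0.992) and CEMIP2 (0.984), all highest in A2ko. BMP2, a bone morphogenetic protein, was at 5.52 to 6.44 TPM for Control, 15.3 for A2ko, 9.58 in A8ko and, for the C9ko libraries, 10.9 and 11.5. For OSMR they were RCAN1 (0.997), ITGAV (0.995) and CRIM1 (0.994), and for IL6ST INAFM2, ITGB2 and CCDC9B (each 0.988). IL24 was nearest to STEAP1B (0.988), CSF3 to HMGA2-AS1 (0.963) and IL6R to PCOLCE2 (0.964).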

How the data were processed

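The deposited values are TPM per Ensembl gene identifier, computed by the authors from polyA RNA libraries made by the dUTP method, which marks strand, per the labels' protocols. The genome build is hg38, per the submitters' processing notes, and the aligner, quantifier, annotation and use of strand are not given in the sources used here. Symbols were found for 61463 of 78894 identifiers and GRCh38 positions (GENCODE 29) for 57288. Depth is unknown, so no counting interval is given.

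Identical files were counted once. Values were analysed as log2(TPM + 1), which understates changes of weakly expressed genes, over 17100 genes with at least 1 TPM in at least 2 libraries. C9ko was compared with Control by limma 3.58.1 in R 4.3.3, fitting all 4 groups (eBayes with trend, Benjamini-Hochberg adjustment over all tested genes, called under 0.05). A2ko and A8ko genes were counted when beyond every Control library and by 1 log2 unit or more. Tables were made in Python 3.11.15 with pandas 2.3.3.

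The members and lists were chosen with earlier results of these data known. Named list genes were those called in C9ko with at least 1 log2 unit (up to 4 a list) and those counted in A2ko or A8ko (up to 3 each). Named neighbours were those past 1 log2 unit (up to 3 a member), and likeness named up to 3 genes a member. Some genes that these rules or counts include are not reported here. Genes named beyond these rules were chosen after their values were seen. The alternatives were another pseudocount, other filters, other scalings, each Control or C9ko library left out, identical files counted separately, a replicate block, and Control and C9ko alone.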

Additional observations from a re-analysis of the deposited data

Results flagged for a closer look

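The results here were picked out among those where knockouts lay on opposite sides of the same Control libraries. Other genes named above, among them FOS, FOSL1, IL11RA and ZC3H12A, did so too. These differences were not tested, A2ko and A8ko being 1 library each. For CSF3 the highest and lowest knockout log2 differences lay 1.12 apart, with A2ko listed at 0, A8ko at 1.17 TPM and Control at 0.0570 to 0.212.

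For SERPINA3 they lay 4.83 apart. It was at 7.59, 7.24 and 9.04 TPM for Control, 27.4 for A2ko, 0.00177 in A8ko and, for the C9ko libraries, 3.49 and 4.13. For IL1A, which encodes interleukin-1 alpha, they lay 4.69 apart. It was at 34.9, 31.4 and 36.7 TPM for Control, 4.30 for A2ko, 135.3 in A8ko and, for the C9ko libraries, 53.9 and 59.99.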

How the results depend on the processing

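The count of genes called in C9ko, 5038 as reported, was 3301 to 4174 when a Control or C9ko library was left out, lowest without C9ko replicate 2. It was 8166 with all 9 files as separate libraries. There identical files enter as replicates with no spread between them, so 8166 carries no weight. With the replicate number as a block the count was 3248, against 5029 for the same libraries without the block. Same-numbered libraries did not deviate together (r of -0.0529 and -0.0124 over genes), and only 2 pairs exist. IL24 was the member that lost its call under the block. Counts outside the Control range moved from 867 to 1813 in A2ko and from 809 to 1689 in A8ko with a pseudocount of 0.1. With a minimum mean of 5 TPM they were 380 and 412, but of 10971 tested genes instead of 17100. In that setting 0 members remained counted in A2ko because IL11 was not tested. The small differences of CSF1 and IL24 in A2ko and of IL6R in C9ko changed sign, with ranges of -0.14 to 0.03, -0.03 to 0.12 and -0.05 to 0.13 over the alternatives, and those of the other members kept theirs. The cause of these changes was not tested.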

Other observations

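CD14, a monocyte marker that epithelial cells can also express, rose in C9ko by 1.66 log2 units (limma adjusted p 8.38e-05). It was at 15.1, 14.2 and 17.9 TPM for Control, 23.2 for A2ko, 16.3 in A8ko and, for the C9ko libraries, 52.5 and 50.8. CD68, a lysosomal glycoprotein, fell in C9ko by 1.01 (limma adjusted p 0.000206), that is from 27.8 to 32.2 TPM in Control to 14.1 and 14.3, and was at 66.3 in A8ko. CDH5, the cadherin of endothelial junctions, rose in C9ko by 2.51 (limma adjusted p 8.35e-05). It was at 3.21 to 4.27 TPM for Control, 12.6 for A2ko, 8.15 in A8ko and, for the C9ko libraries, 21.9 and 29.9. PTPRC and KDR, which mark leukocytes and endothelium, were at or near 0 in every library.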
